A study of Macaca mulatta with 449 samples.

Results

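The ventral midbrain was compared with the pons and medulla in the brains of 8 rhesus macaques. The ventral midbrain side of each animal was the sum of the read counts of its ventral tegmental area (VTA) and its substantia nigra (SN), and the other side was the sum of its medulla oblongata (MO) and its pons (PON). The samples were assigned to the sides by their sub-region labels. The comparison rested on 32 of the 408 samples in the gene count table, 16 on each side, with both sides taken from the same 8 animals.

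The study profiled RNA from small tissue pieces of anatomical sub-regions across the macaque brain, 51 of which are in the table. According to the methods of the study, only the centre of the VTA and of the SN was taken, so the edges of these nuclei are not represented. None of the animals carried a treatment or a genetic change. Animals 4, 7, 8 and 10 were young, at 3.2, 4, 3.8 and 5 years, and animals 2, 3, 6 and 11 were mid-aged, at 10, 10, 10 and 9.8 years. Animals 2, 3, 7 and 8 were male and animals 4, 6, 10 and 11 were female. Each sample is a piece of bulk tissue, in which fewer cells of a type and less RNA per cell cannot be told apart.

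The VTA and SN hold the dopamine neurons of the ventral midbrain, which make dopamine from tyrosine, load it into vesicles, and take it back up after release. The SN also holds the pars reticulata, a nucleus of inhibitory neurons that use GABA. The pons and medulla carry cranial nerve nuclei, the reticular formation, raphe nuclei and the pontine grey, and their cells keep part of the HOX code that sets position along the embryonic hindbrain and spinal cord.

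Each library held 8447320 to 15231743 counted reads, and the medians were 10270311 in VTA, 10209058 in SN, 11563888 in MO and 9788047 in PON. Levels are given as CPM, the read count of a gene scaled to a common library size. The MO library of animal 6 stood apart from the other MO libraries. Its median correlation with libraries of its own sub-region was 0.876, while the other 31 libraries lay between 0.945 and 0.980. Its pan-neuronal markers summed to 494 CPM against 4642 to 8424 CPM in the other 7 MO libraries, and its oligodendrocyte markers to 90509 CPM against 29666 to 62832 CPM. Its part in the results was not tested beyond leaving it out, which gave 421 genes higher in the ventral midbrain and 563 lower, against 399 and 500 with it.

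Among 15546 genes tested, 399 were called higher in the ventral midbrain, or 2.57%, and 500 were called lower, or 3.22%. A call required an adjusted p below 0.05 (false discovery rate, FDR) and a fold above 2 in the edgeR quasi-likelihood test with the animal as a block. The median log2 difference of all genes tested was 0.01. Counts of list members called below are to be read against these shares and this median. Without the fold limit, 6403 genes passed the FDR, 3271 of them higher and 3132 lower. Of the genes called, 96 of those higher and 100 of those lower had no gene symbol in the reference table.

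**Figure D1:**
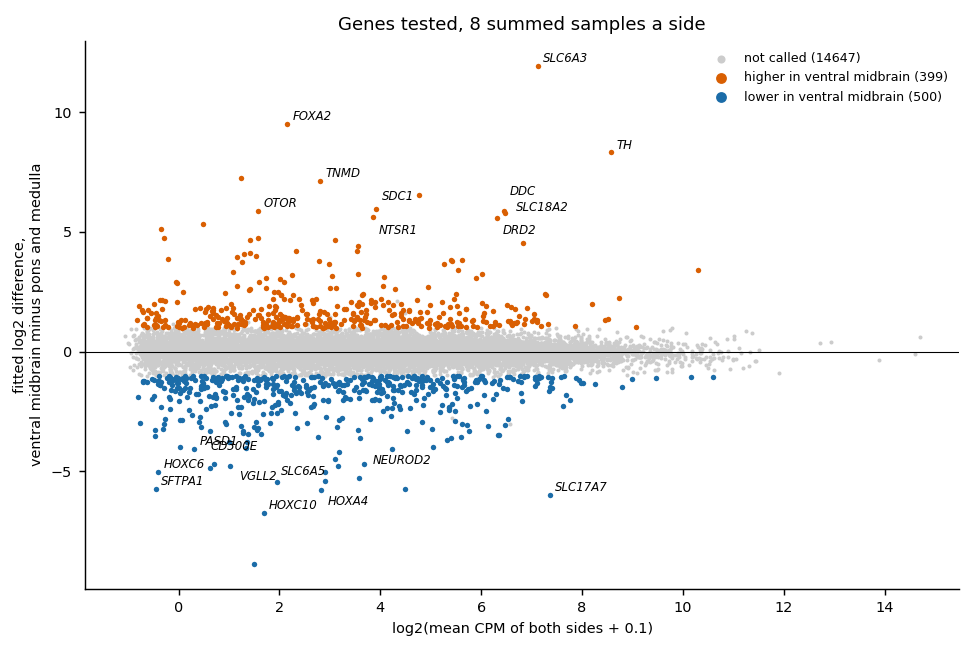
Fitted log2 difference between the ventral midbrain and the pons and medulla (vertical axis) against the mean level of each gene in log2 CPM (horizontal axis), with 399 genes called higher in orange, 500 called lower in blue and the other 14647 genes tested in grey. SLC6A3, FOXA2 and TH lie at the top, and HOXC10, SLC17A7 and HOXA4 are the lowest of the labelled genes. The fitted values of genes with a side under the floor of 3 reads, SLC6A3, FOXA2 and HOXC10 among them, are not bounds.

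The groups were also compared sample by sample. In 395 genes, or 2.54% of those tested, the 8 summed ventral midbrain samples all lay above the 8 summed pons and medulla samples, and in 498 genes, or 3.2%, all lay below. This held for 206 of the 399 genes called higher and for 293 of the 500 called lower. At the level of single libraries, 12 genes (0.0772%) had all 16 ventral midbrain libraries above all 16 pons and medulla libraries, and 12 genes (0.0772%) had the reverse.

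Named genes of the first kind were TH, SLC6A3, FOXA2, CHRNA3, CHRNA5, ZFHX4, SDS and NPNT. Those of the second kind were HOXC10, HOXA4, HS3ST3A1, SHROOM3 and PATJ. ZFHX4, SDS, NPNT, HS3ST3A1, SHROOM3 and PATJ were chosen after their values were seen, since they are in no gene list used here. NPNT, which encodes the extracellular matrix protein nephronectin, ranged from 30.6 to 67.7 CPM in VTA and 65.8 to 140 CPM in SN, and from 4.40 to 14.7 CPM in MO and 1.70 to 5.28 CPM in PON. SHROOM3, an actin-binding protein gene, showed the smaller log2 difference of -1.60, with 3.21 to 10.3 CPM over the VTA and SN libraries and 11.3 to 27.3 CPM over the MO and PON libraries.

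The genes of dopamine synthesis, storage and uptake had the highest median difference of the lists examined. Of 9 such genes tested, 6 were called higher in the ventral midbrain, none was called lower, and the median log2 difference was 5.59, against 2.57% called higher and a median of 0.01 over all genes tested. SLC6A3 (ENSMMUG00000005198), the plasma membrane dopamine transporter, ranged from 137 to 433 CPM in the summed ventral midbrain samples, with a median of 289 CPM. In the pons and medulla it ranged from 0 to 0.197 CPM, with a median of 0.0447 CPM. The sides did not overlap in any library. The mean in the pons and medulla lay under a floor of 3 reads per summed sample. Against that floor the mean of SLC6A3 was at least 2004-fold higher in the ventral midbrain (8 animals, edgeR adjusted p = 1.1e-11). Single pons and medulla samples held up to 4 reads, so the bound holds for the means and not for each animal.

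TH (ENSMMUG00000003912), the rate-limiting enzyme of catecholamine synthesis, ranged from 508 to 977 CPM in the ventral midbrain (median 751) and from 0.115 to 7.12 CPM in the pons and medulla (median 1.42). The lowest VTA library, of animal 2 with 14.7 CPM, lay just above the highest MO library, of animal 8 with 12.6 CPM. The log2 difference was 8.33 ± 0.50 (SE, 8 animals, edgeR adjusted p = 4e-07). DDC, which encodes the decarboxylase that makes dopamine from L-DOPA, ranged from 100 to 227 CPM in the ventral midbrain (median 164) and from 0.493 to 20.1 CPM in the pons and medulla (median 2.64). The summed samples did not overlap, but the lowest VTA library had 5.51 CPM and the highest MO library 35.2 CPM. The log2 difference of DDC was 5.88 ± 0.56 (SE, edgeR adjusted p = 1.1e-05). Both markers of the ventral midbrain were thus present in every VTA and SN library.

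SLC18A2, the vesicular monoamine transporter, ranged from 60.7 to 301 CPM in the ventral midbrain (median 193) and from 0.591 to 10.8 CPM in the pons and medulla (median 2.43), a log2 difference of 5.80 ± 0.48 (SE). DRD2, the dopamine receptor that also acts as the autoreceptor of these neurons, ranged from 99.4 to 192 CPM (median 154) against 1.01 to 15.2 CPM (median 3.09), a log2 difference of 5.59 ± 0.34 (SE). GCH1, the first enzyme of tetrahydrobiopterin synthesis, was called at a log2 difference of 1.89 ± 0.17 (SE). None of the last 3 genes overlapped between the summed samples. PTS, SPR and QDPR, the other enzymes that make or regenerate this cofactor, were not called, with log2 differences of 0.42, 0.25 and 0.33.

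**Figure D2:**
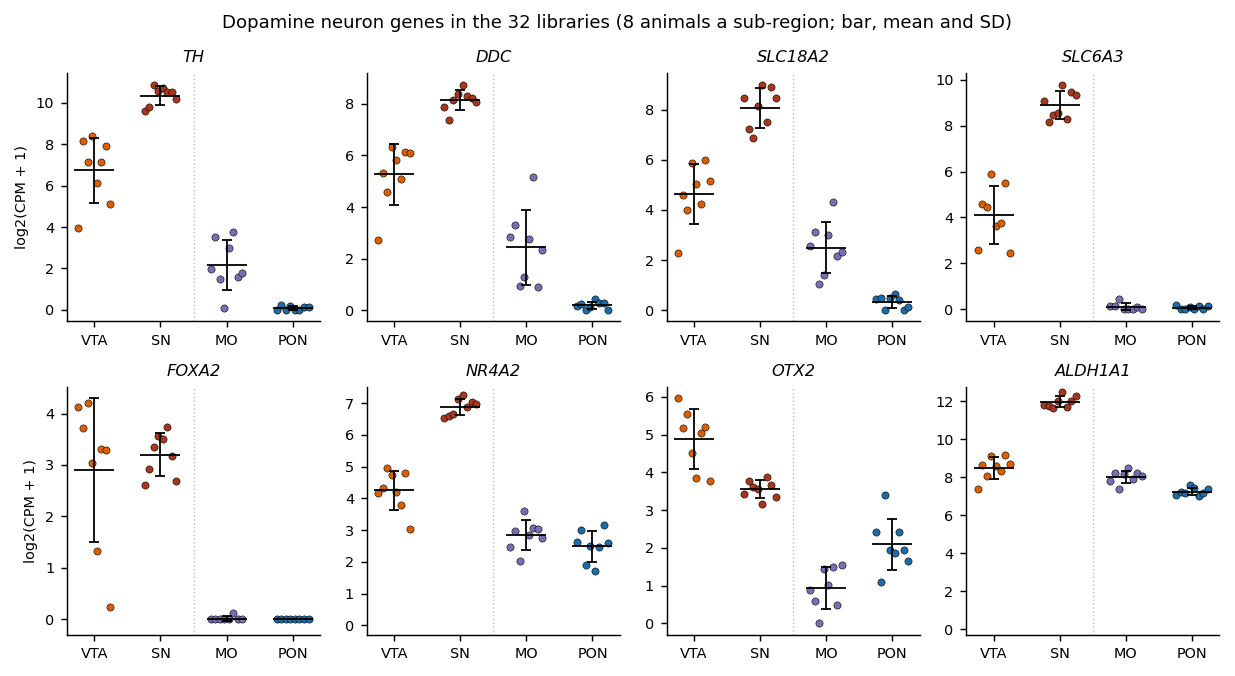
Levels of 8 dopamine neuron genes in each of the 32 libraries as log2(CPM + 1), in 4 groups of 8 animals (VTA, SN, MO and PON), with the mean and SD of each group. SLC6A3 is near 0 in all MO and PON libraries, FOXA2 and OTX2 are present in both VTA and SN, and the other genes have their highest libraries in SN.

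The SN libraries carried most of this signal. SLC6A3 had a median of 458 CPM in SN and 16.8 CPM in VTA, and TH a median of 1465 CPM in SN and 140 CPM in VTA. Within the ventral midbrain, 390 genes (2.57% of 15157 tested over the 32 libraries) were called higher in SN than in VTA and 420 (2.77%) lower. SLC6A3 was higher in SN by 4.79 on the log2 scale and TH by 3.49 (edgeR adjusted p = 8.4e-10 and 4.1e-06). Against the pons and medulla, the VTA libraries alone still differed: for TH, the log2 difference was 4.85 for VTA against MO and 8.34 for SN against MO. In PON, TH was at 0 to 0.193 CPM, with fewer than 3 reads in every library, so no fold is given against it. These contrasts share libraries and are given side by side only. Over all the genes called higher, 186 of 399 had a mean in SN at least 2 times that in VTA and 25 had the reverse, against 2.74% and 3.18% of the genes tested.

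Of the 4 genes of monoamine breakdown tested, 1 was called higher and none lower (2.57% and 3.22% of all genes). Their median log2 difference was 0.25. The called gene was ALDH1A1, an aldehyde dehydrogenase known from dopamine neurons of the ventral SN. It ranged from 1597 to 2871 CPM in the ventral midbrain and from 151 to 269 CPM in the pons and medulla, without overlap, and its log2 difference was 3.42 ± 0.09 (SE, edgeR adjusted p = 8.2e-10). The signal lay in SN, where the median was 3864 CPM, while the VTA median was 389 CPM and the log2 difference of VTA from MO was 0.50, not called. MAOA and MAOB, the monoamine oxidases, were not called, at 0.32 and -0.28.

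The transcription factors of midbrain dopamine neurons were higher in the ventral midbrain wherever they passed the filter on low counts. Of 9 such factors, 5 had an identifier in the table, 4 were tested, and all 4 were called higher, with a median log2 difference of 3.43, also with FOXA2 at the bound given next. A gene can pass the filter through its higher side alone, so this count is a description. FOXA2 (ENSMMUG00000010410), a forkhead factor needed to make and maintain dopamine neurons, ranged from 2.99 to 13.8 CPM in the summed ventral midbrain samples, with a median of 9.22 CPM. It had no reads in the pons and medulla of any animal but animal 8, where 1 read gave 0.0495 CPM. Taken against the same floor of 3 reads per summed sample, the mean of FOXA2 was at least 62.1-fold higher in the ventral midbrain.

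NR4A2, a nuclear receptor required for the dopamine phenotype, ranged from 55.8 to 87.9 CPM in the ventral midbrain and from 2.81 to 7.79 CPM in the pons and medulla, a log2 difference of 3.64 ± 0.14 (SE). OTX2, a homeobox factor of forebrain and midbrain, ranged from 10.9 to 30.8 CPM against 0.802 to 3.99 CPM, a log2 difference of 3.22 ± 0.22 (SE). Neither gene overlapped between the sides. They differed in where the ventral midbrain level lay: NR4A2 had a median of 122 CPM in SN and 18.4 CPM in VTA, and OTX2 a median of 11.1 CPM in SN and 33.7 CPM in VTA. The difference of SN from VTA was called in both, at 2.64 for NR4A2 and -1.46 for OTX2 (edgeR adjusted p = 5.1e-09 and 0.0015). FOXA2 was not called between them, at 0.25 (adjusted p = 0.70).

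LMX1B, a LIM homeobox factor of dopamine and serotonin neurons, was called at 2.91 ± 0.65 (SE, edgeR adjusted p = 0.004), but its sides overlapped. It ranged from 2.75 to 7.35 CPM in the ventral midbrain (median 4.25) and from 0.0384 to 5.87 CPM in the pons and medulla (median 0.268), with the highest value in animal 4. LMX1A did not pass the filter. Its libraries ranged from 0.217 to 9.32 CPM in SN and from 0.0901 to 2.64 CPM in VTA, while no MO or PON library exceeded 0.436 CPM.

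Of 20 other genes known from dopamine neurons that were tested, 11 were called higher and 1 lower. Over all genes tested the shares were 2.57% and 3.22%, and the median log2 difference of the list was 1.26. SDC1, the heparan sulfate proteoglycan syndecan-1, ranged from 15.7 to 42 CPM in the ventral midbrain (median 29.2) and from 0 to 1.28 CPM in the pons and medulla (median 0.461). NTSR1, the high-affinity neurotensin receptor, ranged from 21 to 36.6 CPM (median 29.4) against 0.115 to 1.87 CPM (median 0.448). SLC10A4, a vesicle protein of the bile acid transporter family, ranged from 130 to 278 CPM (median 238) against 4.09 to 34.8 CPM (median 8.68). None of the 3 overlapped between the summed samples, and their log2 differences were 5.95 ± 0.32, 5.60 ± 0.29 and 4.55 ± 0.32 (SE). SDC1 and NTSR1 lay in SN, with medians there of 53.9 and 53.1 CPM against 2.02 and 4.88 CPM in VTA. Their single libraries overlapped: the lowest VTA library had 0.344 CPM of each, and the highest MO library 1.87 CPM of SDC1 and 3.30 CPM of NTSR1.

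DLK1, an imprinted Notch ligand relative, was higher by 3.39, GFRA1, a GDNF co-receptor, by 1.89 and CALCR, the calcitonin receptor, by 1.73 on the log2 scale. The summed samples of GFRA1 and CALCR overlapped, as did those of GRP, KCNJ6 and CNTNAP2, given next. In animal 8, CALCR was at 13.9 CPM in the ventral midbrain and 29.4 CPM in the pons and medulla. The gastrin-releasing peptide gene GRP was called at 1.36, a call that was lost without animal 3, 6, 7 or 8 and without the block. KCNJ6, the GIRK2 potassium channel, was called at 1.17. KCNJ6 rested on SN: its median was 8.05 CPM in SN, 1.17 CPM in VTA, 1.09 CPM in MO and 2.96 CPM in PON. The gene called lower was CNTNAP2, a neurexin family member of the axon, at -1.49 ± 0.13 (SE). RET, the GDNF receptor kinase, and SOX6, a factor of SN dopamine neurons, passed the FDR but not the fold, at 0.65 and 0.81. CALB1, which marks dopamine neurons of the VTA, was not called at -1.04 ± 0.65 (SE, adjusted p = 0.22), with up to 769 CPM in an MO library.

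Genes for subunits of the nicotinic acetylcholine receptor, the ion channel through which acetylcholine and nicotine excite neurons, differed by subunit. Of 12 tested, 5 were called higher and 1 lower (2.57% and 3.22% of all genes), with a median log2 difference of 0.63. CHRNA5 ranged from 11.3 to 19.2 CPM in the ventral midbrain (median 13.5) and from 0.58 to 1.44 CPM in the pons and medulla (median 1.27), a log2 difference of 3.66 ± 0.16 (SE, edgeR adjusted p = 5.8e-08). CHRNA3, its neighbour in a gene cluster, ranged from 11.9 to 22 CPM (median 13.1) against 0.713 to 2.61 CPM (median 1.67), a log2 difference of 3.17 ± 0.20 (SE). In both genes every VTA and SN library lay above every MO and PON library.

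CHRNA4 and CHRNA6, subunits of the receptors on dopamine neurons, were called at 3.10 ± 0.27 and 2.42 ± 0.14 (SE). Their summed samples did not overlap. CHRNA6 in VTA did not differ in call from PON, with medians of 5.35 and 5.86 CPM, and its difference was carried by SN, with a median of 36.6 CPM. CHRNA2 had the reverse layout, with a median of 23.9 CPM in VTA, 0.445 CPM in SN, 0.556 CPM in MO and 0 in PON. It was called at 4.18 ± 0.78 (SE), with 4.49 to 180 CPM among the VTA libraries. Its summed samples overlapped, with 2.66 CPM in the ventral midbrain of animal 7 and 5.38 CPM in the pons and medulla of animal 10. CHRNA9 was the subunit called lower, at -2.08 ± 0.31 (SE), and CHRNB2, the common partner subunit, was not called at 0.23.

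Of 7 genes tested from the list of GABA neurons and their midbrain transcription factors, 4 were called higher in the ventral midbrain and none lower. The shares of all genes called were 2.57% and 3.22%, and the median log2 difference of the list was 1.79. GAD1, a GABA-synthesising enzyme, ranged from 174 to 351 CPM in the ventral midbrain (median 242) and from 13.4 to 113 CPM in the pons and medulla (median 63.5), with no overlap. Its log2 difference was 2.39 ± 0.38 (SE, edgeR adjusted p = 0.00047). GAD2, the second such enzyme, ranged from 139 to 322 CPM against 8.02 to 141 CPM, and SLC32A1, the vesicular GABA transporter, from 51.4 to 86.5 CPM against 1.84 to 73.9 CPM. The sides overlapped in both, and the log2 differences were 2.36 ± 0.44 and 1.79 ± 0.53 (SE). In the 4 young animals, the difference of SLC32A1 between the sides was -0.02 to 0.69 on the scale of log2(CPM + 1), and it was lower in the ventral midbrain than in MO in all 4, by -0.83 to -0.10. GAD1, GAD2 and SLC32A1 had their lowest medians in PON, where the SLC32A1 median was 2.15 CPM against 55.2 CPM in MO. Within the ventral midbrain their mean levels were higher in VTA than in SN. Ranked from the highest of the 51 sub-regions, VTA and SN were at places 39 and 47 for GAD1, 9 and 44 for GAD2, and 6 and 38 for SLC32A1. For GATA3, given next, VTA was the highest of all sub-regions and SN was at place 4. GATA3, a zinc finger factor of midbrain GABA neurons, was called at 2.89 ± 0.29 (SE), and GATA2, at 0.92, passed the FDR but not the fold.

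The vesicular glutamate transporters of most excitatory neurons were lower in the ventral midbrain, and glycine genes went both ways. Of 4 genes of glutamate transport and synthesis, none was called higher and 2 were called lower (2.57% and 3.22% of all genes). Their median log2 difference was -1.42. SLC17A7, the vesicular glutamate transporter VGLUT1, ranged from 1.32 to 45.4 CPM in the ventral midbrain (median 2.83) and from 235 to 399 CPM in the pons and medulla (median 308). Its log2 difference was -5.97 ± 0.64 (SE, edgeR adjusted p = 2.6e-05), and its median was 588 CPM in PON against 88.7 CPM in MO. SLC17A6, the transporter VGLUT2, ranged from 52.1 to 139 CPM (median 74.8) against 204 to 500 CPM (median 344), a log2 difference of -2.01 ± 0.12 (SE). Neither transporter overlapped between the sides. SLC17A6 had medians of 153 CPM in VTA, 6.69 CPM in SN, 266 CPM in MO and 441 CPM in PON, and the difference of SN from VTA was -3.91 (adjusted p = 3.9e-06).

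Of 7 glycine genes tested, 1 was called higher and 2 lower (2.57% and 3.22% of all genes), with a median log2 difference of -0.44. SLC6A5, the neuronal glycine transporter GlyT2, ranged from 0.0519 to 1.24 CPM in the ventral midbrain (median 0.532) and from 0.499 to 50 CPM in the pons and medulla (median 9.45). The sides overlapped at the low end of the pons and medulla, and the log2 difference was -4.46 ± 0.43 (SE, edgeR adjusted p = 1.1e-05). The level lay in MO, with a median of 17.2 CPM against 0.253 CPM in PON. Glycine receptor subunits went both ways, with GLRA1 called lower at -1.85 ± 0.16 (SE) and GLRA3 called higher at 1.91 ± 0.48 (SE), while GLRB, the shared beta subunit, was at -0.70 and not called. The summed samples of GLRA1 and of GLRA3 overlapped.

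HOX genes are the homeobox factors that set position along the hindbrain and spinal cord. Of 39 genes in the list, 16 had an identifier in the table and 5 passed the filter. These 5 were called lower in the ventral midbrain, with a median log2 difference of -5.03, or -3.77 with HOXC10 and HOXC6 at the bounds given next. The other 11 were under the filter, and since a HOX gene can pass it through the pons and medulla alone, the count of 5 is a description. HOXC10 (ENSMMUG00000000925) ranged from 0 to 0.245 CPM in the ventral midbrain (median 0) and from 3.74 to 8.68 CPM in the pons and medulla (median 6.29). HOXA4 ranged from 0 to 0.735 CPM (median 0.189) against 11.1 to 16.9 CPM (median 13.4). In both genes every MO and PON library lay above every VTA and SN library, with edgeR adjusted p = 3.3e-07 and 2.4e-07. The log2 difference of HOXA4 was -5.79 ± 0.32 (SE). HOXC10, whose ventral midbrain mean lay under the floor of 3 reads, was at least 43.4-fold lower by the means of the sides.

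HOXC6 ranged from 0.535 to 1.93 CPM in the pons and medulla and was at 0 in every VTA library and at most 0.543 CPM in SN. Against the floor its mean was at least 8.99-fold lower in the ventral midbrain. HOXA7 was called at -3.77 ± 0.29 (SE), with 0.05 to 0.532 CPM in the ventral midbrain (median 0.361), 1.71 to 11.9 CPM in the pons and medulla (median 4.64) and no overlap. The order of MO and PON varied: HOXA7 had medians of 8.32 CPM in MO and 1.01 CPM in PON, and HOXC10 medians of 3.55 CPM in MO and 9.53 CPM in PON. Among the genes under the filter, HOXB8 was at 0 in every VTA, SN and PON library and reached 89.7 CPM in the MO of animal 4, from 1007 reads. The next MO library, of animal 11, had 5.47 CPM. HOXA9, also under the filter, had its highest library in the VTA of animal 2, at 1.95 CPM, and at most 0.711 CPM in MO and PON. The same MO library of animal 4 also had the highest level of PAX2, a factor of inhibitory interneurons, with 18 CPM, and of SKOR1, with 21.2 CPM.

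**Figure D3:**
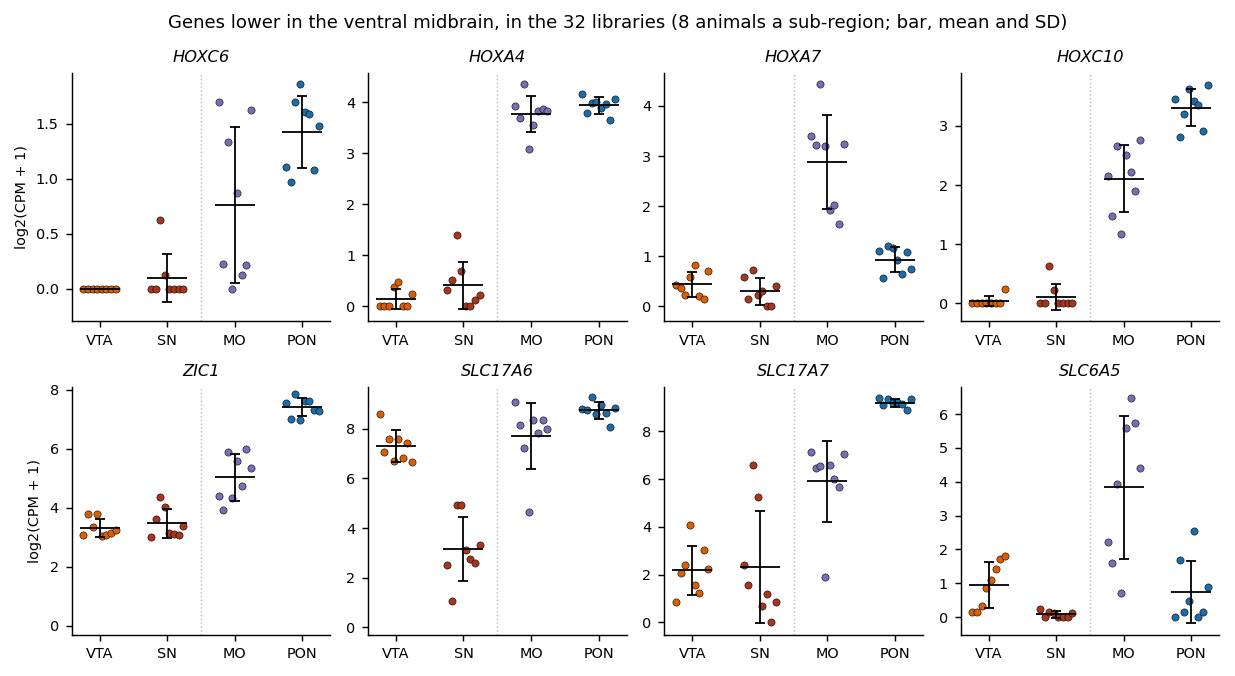
Levels of 8 genes in each of the 32 libraries as log2(CPM + 1), in 4 groups of 8 animals (VTA, SN, MO and PON), with the mean and SD of each group. HOXA4 and HOXC10 separate the MO and PON libraries from all VTA and SN libraries, SLC17A7 and ZIC1 are highest in PON, HOXA7 and SLC6A5 are highest in MO, and SLC17A6 is also high in VTA.

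Factors of midbrain and isthmus patterning, the boundary zone between midbrain and hindbrain, gave 1 gene called higher and 3 lower among 9 tested. The shares of all genes called were 2.57% and 3.22%, and the median log2 difference of the list was -0.96. The higher gene was OTX2, described above. The lower genes were POU4F1, a POU homeobox factor of sensory relay neurons, at -3.15 ± 0.61 (SE), TFAP2B at -2.92 ± 0.55 (SE) and PAX3, a dorsal patterning factor, at -2.07 ± 0.31 (SE). The summed samples overlapped in each of these lower genes. In the pons and medulla, POU4F1 was at 12.5 and 20.8 CPM in animals 2 and 3 and at most 3.27 CPM in the other animals. TFAP2B went the other way in animal 4, with 0.833 CPM in the ventral midbrain and 0.542 CPM in the pons and medulla. PAX3 overlapped narrowly, with 1.03 CPM in the ventral midbrain of animal 11 and 1.01 CPM in the pons and medulla of animal 2. POU4F1 was at 0 in all PON libraries and reached 39.4 CPM in MO, so that its difference lay in the medulla. GBX2, which opposes OTX2 at the isthmus, was not called at -1.08 ± 0.41 (SE, adjusted p = 0.055).

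Of 10 hindbrain neuron factors tested, 2 were called higher and 3 lower (2.57% and 3.22% of all genes). Their median log2 difference was 0.19. ZIC1, a zinc finger factor of pontine and cerebellar precursors, ranged from 7.22 to 14.2 CPM in the ventral midbrain (median 8.38) and from 66.4 to 128 CPM in the pons and medulla (median 101). ZIC2 ranged from 1.38 to 5.19 CPM (median 2.78) against 11 to 14 CPM (median 12). Neither overlapped, and the log2 differences were -3.31 ± 0.19 and -2.07 ± 0.19 (SE). PON carried both, with medians of 172 CPM for ZIC1 and 21.4 CPM for ZIC2. NKX6-1, a ventral patterning factor, was called higher at 2.00 ± 0.27 (SE), with 10.9 to 29 CPM against 1.82 to 8.9 CPM, and POU3F1 at 1.92 ± 0.26 (SE).

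**Figure D4:**
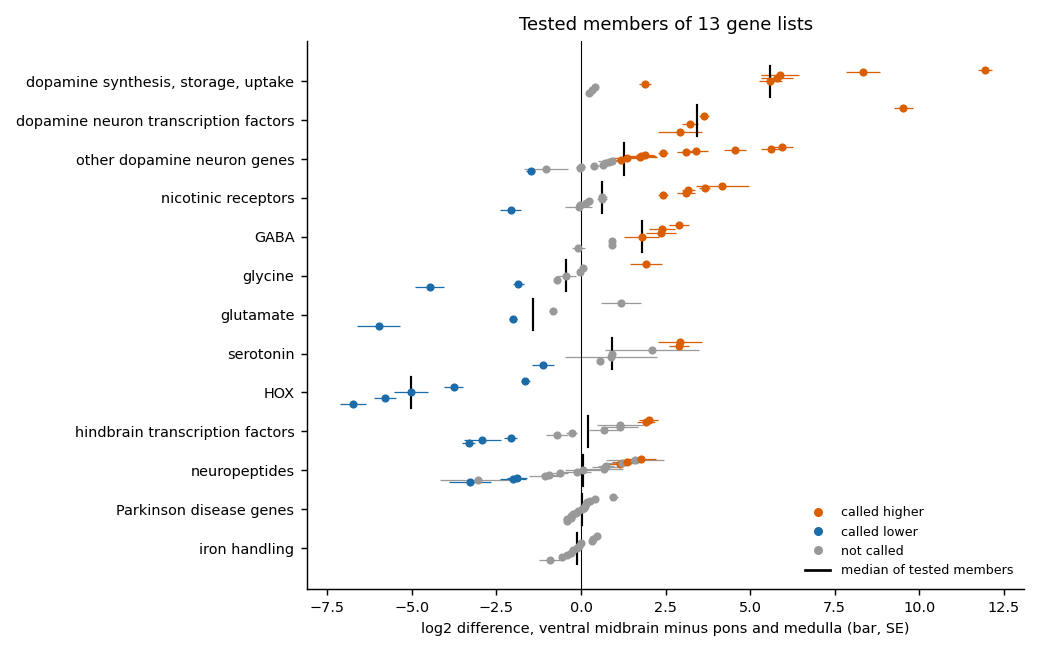
Fitted log2 difference between the ventral midbrain and the pons and medulla, with its SE, for each tested member of 13 gene lists, and the median of each list as a bar. The dopamine synthesis list and the dopamine neuron factors lie above 0, the 5 HOX genes tested lie below 0, and the Parkinson disease and iron lists lie around 0.

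TPH2, SLC6A4, CHAT and SLC18A3, synthesis and transporter genes of serotonin and acetylcholine, varied widely between animals and were not called. Of 7 serotonin neuron genes tested, 2 were called higher and 1 lower (2.57% and 3.22% of all genes), with a median of 0.92. The 2 called higher were LMX1B and GATA3, given above. TPH2, the serotonin-synthesising enzyme of neurons, ranged from 0 to 45.4 CPM in the ventral midbrain and from 0.148 to 26 CPM in the pons and medulla, and was not called at 0.89 ± 1.36 (SE, adjusted p = 0.63). SLC6A4, the serotonin transporter, was not called at 2.10 ± 1.40 (SE, adjusted p = 0.25), with 0 to 237 CPM in VTA, at most 1.2 CPM in SN, 0.0891 to 50.1 CPM in MO and at most 0.387 CPM in PON. The serotonin receptor HTR1A was called lower at -1.12 ± 0.32 (SE), a call that was lost without animal 4 or 8 and without the block. CHAT and SLC18A3, which make and store acetylcholine, were not called at 0.94 and 0.78, and CHAT was at 0 in all PON libraries. Of 4 cholinergic and motor neuron genes tested, with a median of -0.30, none was called higher (2.57% of all genes) and 2 lower (3.22%). These were CALCB, a calcitonin gene-related peptide gene, at -2.01 ± 0.38 (SE), and PRPH, the intermediate filament peripherin, at -1.38 ± 0.38 (SE). The summed samples of both overlapped. PRPH went the other way in animal 4, with 9.31 CPM in the ventral midbrain and 2.86 CPM in the pons and medulla.

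Of the 2 genes tested from the noradrenaline list, 1 was called lower (3.22% of all genes). This was DBH, which converts dopamine to noradrenaline, with 0 to 0.957 CPM in the ventral midbrain (median 0.312) and 0.192 to 8.56 CPM in the pons and medulla (median 3.18). The sides overlapped, and the log2 difference was -3.01 ± 0.64 (SE, edgeR adjusted p = 0.0028). DBH lay in MO, with a median of 6.09 CPM, and was at most 0.193 CPM in PON.

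Of 17 neuropeptide genes tested, 3 were called higher and 3 lower (2.57% and 3.22% of all genes), with a median of 0.07. CCK, cholecystokinin, was called higher at 1.78 ± 0.43 (SE), with 4.31 to 28 CPM in the ventral midbrain (median 13.1) and 1.52 to 23.1 CPM in the pons and medulla (median 2.84). The sides overlapped. Animal 4 went the other way, with 15.2 CPM in the ventral midbrain and 23.1 CPM in its pons and medulla, the highest there. Apart from it, the pons and medulla of animal 7 at 4.56 CPM lay above the ventral midbrain of animal 3 at 4.31 CPM. UCN, urocortin, was called higher at 1.15, with the GRP gene given above. The call of UCN was lost without animal 4 or 8 and without the block. Its ventral midbrain level was 5.29 CPM in animal 4 and at most 1.93 CPM in the other 7 animals. TRH, thyrotropin-releasing hormone, was called lower at -3.28 ± 0.63 (SE), with 0.049 to 3.02 CPM against 3.62 to 71.3 CPM and no overlap. NPY was called lower at -1.89 ± 0.30 (SE), as was CALCB, both with overlap between the summed samples. CRH, corticotropin-releasing hormone, was at -3.03 ± 1.15 (SE) and not called (adjusted p = 0.052). Its MO level ranged from 11.8 to 1416 CPM, with 990 CPM in animal 2 and 1416 CPM in animal 3.

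The remaining genes with the largest differences were of mixed kinds. On the higher side, TNMD, which encodes the membrane protein tenomodulin, ranged from 3.84 to 31.6 CPM in the ventral midbrain (median 11.1) and from 0 to 0.247 CPM in the pons and medulla (median 0.0447). OTOR, otoraplin, ranged from 0.784 to 13.5 CPM (median 5.27) against 0 to 0.23 CPM (median 0.0681). Neither overlapped. Against the floor of 3 reads, the mean of TNMD was at least 98.7-fold and that of OTOR at least 40.7-fold higher in the ventral midbrain. Single pons and medulla samples held up to 5 and 6 reads, so single animals can lie under these folds. Both genes lay in SN, with medians there of 18.7 and 10.2 CPM.

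On the lower side, NEUROD2, a bHLH factor of excitatory neurons, ranged from 0.15 to 2.55 CPM in the ventral midbrain (median 0.69) and from 19.6 to 28.5 CPM in the pons and medulla (median 23.5), a log2 difference of -4.68 ± 0.41 (SE). Against the floor of 3 reads, the means of VGLL2, CD300E and PASD1 were at least 26.2-fold, 20.6-fold and 15.1-fold lower in the ventral midbrain. That of SFTPA1, a surfactant protein gene, was at least 8.76-fold lower. Single ventral midbrain samples held up to 14 reads of VGLL2, 10 of CD300E and 7 of PASD1, so single animals can lie under these folds. None of these genes overlapped between the summed samples. They shared a layout in which PON was high: the medians in PON and MO were 42 and 9.13 CPM for NEUROD2, 6.71 and 0.529 CPM for VGLL2, 5.63 and 0.609 CPM for CD300E, 3.82 and 0.233 CPM for PASD1, and 2.04 and 0.303 CPM for SFTPA1.

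The pons and the medulla differed in many genes. Between them, 947 genes (6.25% of 15157 tested) were called higher in MO than in PON and 573 (3.78%) lower. Of the 500 genes called lower in the ventral midbrain, 256 had a mean in PON at least 2 times that in MO and 58 had the reverse, against 3.51% and 7.40% of the genes tested. Numbers of calls followed the pairing: VTA against MO gave 112 genes higher and 297 lower, VTA against PON 768 and 772, SN against MO 502 and 659, and SN against PON 1222 and 955.

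Genes linked to Parkinson disease, in which the SN loses its dopamine neurons, were not called in either direction, with 0 of 15 called by edgeR or by DESeq2 and a median log2 difference of 0.02. Without the fold limit, 8 of the 15 passed the FDR, against 6403 of the 15546 genes tested, and 11 an unadjusted p below 0.05. Of 11 genes of iron handling, which is of interest because iron builds up in the SN, 0 were called by edgeR or DESeq2, 8 had an unadjusted p below 0.05 and the median was -0.11. Of 9 neurofilament and large axon genes, 2 were called lower, among them PRPH, and the median was -0.72. Over all genes tested, 2.57% were called higher and 3.22% lower, so lists of this size can hold 0 calls at that share.

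Markers of other cell types were examined beside these results. No gene was called among 8 oligodendrocyte, 5 oligodendrocyte precursor, 5 microglia, 7 endothelial, 5 choroid plexus, 6 ependymal and 4 peripheral myelin markers tested, by edgeR or by DESeq2. In that order, 5, 5, 1, 6, 2, 2 and 1 of them had an unadjusted p below 0.05 in edgeR. Past the FDR without the fold limit were 4, 4, 1, 6, 2, 2 and 1, against 6403 of the 15546 genes tested. With 2.57% called higher and 3.22% lower over all genes, lists this small can hold 0 calls at that share. Of 7 astrocyte markers, 1 was called higher, the glutamate transporter SLC1A3, at 1.04. Oligodendrocyte markers summed to 36001 to 45543 CPM in the ventral midbrain and 38642 to 62339 CPM in the pons and medulla. Within the ventral midbrain their median sum was 54205 CPM in VTA and 24752 CPM in SN. Of 8 pan-neuronal markers, GAP43, a growth cone protein gene, was called higher at 2.01 and RBFOX3, the NeuN gene, lower at -1.26, and the summed level was 5199 to 8067 CPM against 6199 to 11726 CPM.

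Of 7 cerebellar markers, 3 were called lower, FAT2 at -3.61, CALB2 at -1.77 and NEUROD1 at -1.12. FAT2 had medians of 41.1 CPM in PON, 4.19 CPM in MO, 1.39 CPM in VTA and 2.11 CPM in SN, and GABRA6, the defining marker of cerebellar granule cells, was at most 0.795 CPM in PON. Of 5 telencephalic markers, DRD1 was called higher at 1.01 and NEUROD2 and NEUROD6 lower. Of 5 thalamic and hypothalamic markers, FOXB1 was called higher at 1.17. The part of neighbouring tissue in these differences was not tested.

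Across all 51 sub-regions, with levels scaled over the 408 samples, TH, SLC6A3, DDC, SLC18A2 and SLC10A4 were highest in SN and next highest in VTA. FOXA2 had the reverse order of these sub-regions. The serotonin genes TPH2 and SLC6A4, the acetylcholine transporter gene SLC18A3 and UCN were also highest in VTA, at 25.7, 68.5, 13.5 and 2.44 CPM. The part of neighbouring cell groups in the VTA samples was not tested. DRD2 was highest in the putamen and next in SN. HOXC10, HOXA4 and HOXC6 were highest in PON and next in MO, and HOXA7, SLC6A5 and POU4F1 were highest in MO. CHRNA4 and CHRNA3 were highest in the thalamus, at 108 and 28 CPM, with SN in the next place.

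The thalamus and hypothalamus, the next region in rostral order, were summed within each animal in the same way. These comparisons share samples with the main one and are given side by side. The mean level there was 0.143 CPM for SLC6A3 and 5.83 CPM for TH, and TH was higher in the ventral midbrain by 7.13 on the log2 scale. The mean there was 17.5 CPM for CHRNA3 and 12.3 CPM for CHRNA5, and the ventral midbrain differed from it by -0.22 and 0.27, neither of them called, while the pons and medulla differed by -3.40 and -3.39. For ZIC1 the order was different, with a mean of 116 CPM in thalamus and hypothalamus, a ventral midbrain difference of -3.52 and a pons and medulla difference of -0.21. HOXA4 had a mean of 0.00484 CPM there, under the floor of 3 reads. OTX2 had a mean of 37.8 CPM there, and the differences were -0.85 for the ventral midbrain and -4.09 for the pons and medulla.

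Finally, the difference between the sides was compared between 4 mid-aged and 4 young animals, and between males and females, at an adjusted p below 0.1 and a fold above 2. For age stage, 1 gene was called, or 0.00643% of the genes tested, and 715 genes had an unadjusted p below 0.05. The gene was GAD1, whose difference was larger in mid-aged animals by 2.28 ± 0.17 (SE) on the log2 scale (edgeR adjusted p = 0.00157). For sex, the edgeR test called 0 genes and the DESeq2 test 19, and 1097 genes had an unadjusted p below 0.05 in edgeR. GAD2 and SLC32A1 differed by 2.56 and 3.07 between age stages and were not called (adjusted p = 0.218 for both).

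The age difference of GAD1 lay in the medulla. GAD1 ranged from 133 to 173 CPM in the MO of the 4 young animals and from 5.97 to 78.6 CPM in that of the 4 mid-aged animals, without overlap. In PON it ranged from 19.8 to 42.4 CPM in young and 11.2 to 21.1 CPM in mid-aged animals, and in the ventral midbrain from 196 to 250 CPM and from 174 to 351 CPM, with overlap in both. On the scale of log2(CPM + 1), the ventral midbrain exceeded MO by 0.18 to 0.90 in young and by 2.14 to 4.65 in mid-aged animals, and exceeded PON by 2.19 to 3.60 and by 2.98 to 4.71. The lowest MO level was that of animal 6, whose MO library was low in neuronal markers, and without that library the age difference was 2.11. The MO libraries of animals 2 and 3, also mid-aged, had the highest CRH of all 32 libraries. The part of these libraries in the age difference was not tested further.

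**Figure D5:**
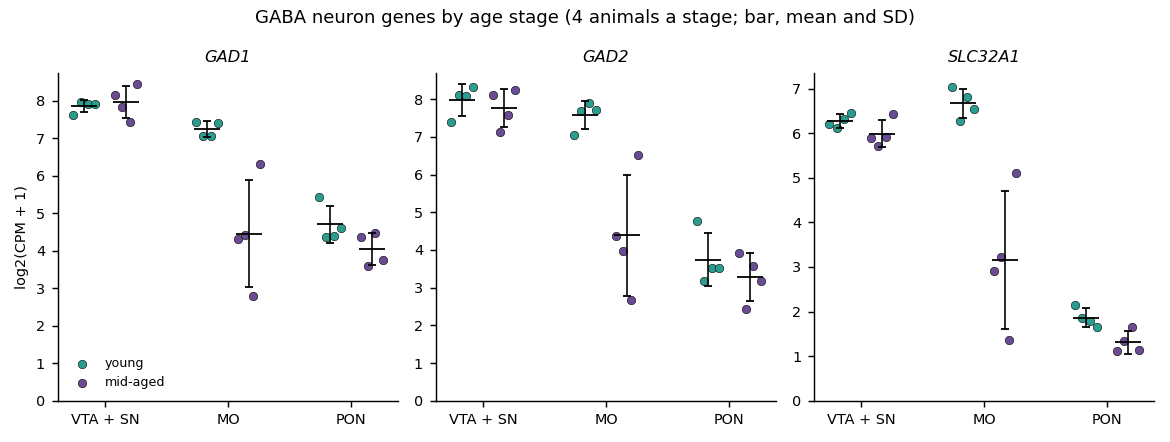
Levels of GAD1, GAD2 and SLC32A1 as log2(CPM + 1) in the summed VTA and SN samples, in MO and in PON, by age stage, with 4 young and 4 mid-aged animals as points and the mean and SD as bars. In MO the young animals lie above the mid-aged ones for GAD1, at 133 to 173 against 5.97 to 78.6 CPM, while the ventral midbrain values of the stages overlap.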

How the data were processed

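RNA was extracted from dissected tissue, depleted of ribosomal RNA and sequenced from directional libraries. Reads were mapped by the authors to the rhesus genome (Mmul 8.0.1) and the read counts per gene were deposited by the authors as whole numbers, not normalized. The submitters' processing notes name FastQC 0.11.4, Trim Galore 0.4.4, HISAT2 2.0.5 and HTSeq 0.6.1; the strand setting of the counting is not given in the sources used here, so overlapping and antisense genes and near-identical copies are uncertain. The table holds 30807 genes, of which 17572 matched a symbol by Ensembl identifier (2340 of them share a symbol). All columns were mapped to samples by their labels. 8 midbrain RNA samples and 33 ATAC-seq samples were not analysed here. No genome or sequence table was used.

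Counts of VTA and SN, and of MO and PON, were summed within each animal to 16 samples. Genes were filtered by filterByExpr, scaled by TMM and tested by the quasi-likelihood F test of edgeR 4.0.16 (R 4.3.3, limma 3.58.1) with the animal as block and Benjamini-Hochberg adjustment over all genes tested, as in the study's model of region and animal. A separate fit of the 32 libraries gave the sub-region pairings and the levels per library, and the 16 sums gave the levels per side, so these CPM differ slightly in scale. The age stage and sex effects were interaction terms in the fit of 16 sums. The SE is the log2 difference divided by the root of F. The floor of 3 counts was 0.142 CPM on the ventral midbrain side and 0.139 CPM on the other, and covers counting error only. Where the mean of a side lay under it, the fold is the mean of the other side over the floor, written as "at least". It bounds the ratio of the means and not the fold in each animal, since single samples can hold more than 3 reads. No libraries were duplicates: the lowest chi-square per degree of freedom between libraries of a sub-region was 10.02.

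The labels give both sides of an animal the same number, which is that of the animal. The deviations of the sides of an animal from their group means correlated at 0.416 to 0.737, against at most 0.054 to 0.260 with the other side of another animal. The fit was tested on simulated data made from these samples' means, dispersions and library sizes, with a random effect of each animal shared by its sides: for 200 genes changed 2-fold, 190 were recovered at an FDR below 0.05, and for 200 genes changed 4-fold, 200. Unchanged genes gave 9 and 10 false calls, among 15470 and 15477 genes run. The fold limit was not applied to the simulated data. The median absolute log2 difference of the genes changed 2-fold was 1.004, so recovery at a fold above 2 was not tested for them. The size of the animal effect was set by hand, and far fewer genes were changed than passed the FDR in the data.

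The genes named were, in each direction, the 10 with a symbol and the largest fitted log2 difference among those called, with at least 1 CPM on the higher side and changed alike in all 8 animals, together with TH, DDC and the members of 18 gene lists and 12 marker lists, whose results are given above, except that single values of a few list members are not reported here. The comparison and the lists were chosen with earlier results of these data known. Alternatives were DESeq2 1.42.0, its size factors, other filters, no block, equal weight of sub-regions, single sub-regions, other thresholds and leaving out each animal. Leaving out the MO library of animal 6 was chosen after seeing the data.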

Additional observations from a re-analysis of the deposited data

Results flagged for a closer look

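Among 63 called genes named here, the 8 animals of each side were examined for a value far from the others by Dixon's test, which gave 11 flags in 126 groups, while chance flags about 1 in 20 groups. Animal 4 gave the most. Its pons and medulla had 5.87 CPM of LMX1B and 23.1 CPM of CCK, the highest of the 8, and 1.28 CPM of CD300E, the lowest. Its ventral midbrain had 0.245 CPM of HOXC10, 0.245 CPM of HOXC6 and 5.29 CPM of UCN, the highest of the 8 in each case. In animal 6, GLRA1 was lowest in the pons and medulla at 11.7 CPM, and CD300E was highest in the ventral midbrain at 0.472 CPM. In animal 8, GATA3 was highest in the pons and medulla at 4.16 CPM, CALCB was highest in the ventral midbrain at 16.7 CPM, and the only FOXA2 read of the pons and medulla gave 0.0495 CPM. The FOXA2, HOXC10 and HOXC6 values rest on few reads.

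The difference between the sides differed between age stages in GAD1, by 2.28 on the log2 scale, by the interaction test given above. The MO library of animal 6 was low in neuronal markers and the MO libraries of animals 2 and 3 were high in CRH, all 3 from mid-aged animals, and the part of these libraries in the age difference was tested only by leaving out the first.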

How the results depend on the processing

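The 399 genes called higher became 219 with VTA alone, 249 with MO alone, 947 with PON alone, 95 with a fold above 4 and 3271 with the FDR alone. The 500 called lower became 757 with SN alone, 211 with MO alone, 774 with PON alone, 136 with a fold above 4 and 3132 with the FDR alone. Leaving out each animal gave 379 to 423 higher and 485 to 549 lower. The gene called for age became 31 genes with DESeq2, 4 with the study's detection filter, 4 without the MO of animal 6 and 1 to 9 without each animal, with 3 without animal 6, 5 without animal 7 and 9 without animal 11. The 0 genes called for sex became 19 with DESeq2 and 0 to 19 without each animal, with 19 without animal 7. The cause of the DESeq2 and single-animal changes was not tested. Among the 6 sub-region pairings, the study's detection filter raised VTA against PON from 768 to 1032 higher and MO against PON from 947 to 1277 higher, and VTA against MO fell from 112 to 75 higher without the block.

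Without the animal as a block, 353 genes were called higher, 491 lower and 0 for age. The log2 difference of GAD1 between age stages was then 2.20 (adjusted p = 0.55). CCK, GRP, CALCR, SLC32A1, HTR1A, PRPH, CALCB and UCN also lost their calls without the block, 8 of 63 called genes.

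Some differences changed sign with single sub-regions or their equal weight: KCNJ6 with VTA alone (-0.80), CALB1, PRPH and NPY with PON alone (2.72, 1.75 and 0.54), SLC6A4, TAC1, CARTPT and PVALB with SN alone (-2.94, -1.97, -3.92 and -1.002), and NTS and PENK with PON alone (4.90 and 5.17) and with equal weight of the sub-regions (1.47 and 1.27). Of the 63 called genes, others kept their direction but lost their calls: 11 with MO alone (LMX1B, GAD2 and SLC32A1 among them), 8 with VTA alone (GCH1, ALDH1A1, LMX1B, CHRNA6, GFRA1, CCK, HTR1A and PRPH), 7 with equal weight of the sub-regions (KCNJ6, POU4F1, TFAP2B, DBH, PRPH, UCN and TRH), 3 with PON alone (KCNJ6, HTR1A and UCN) and 2 with SN alone (GRP and UCN). Of the 63, 50 kept their calls in all 15 settings other than the single sub-regions. GRP, HTR1A and UCN lost theirs when some single animals were left out: GRP without animal 3, 6, 7 or 8, and HTR1A and UCN without animal 4 or 8. Genes at low CPM are limited by depth, and a mean under the floor does not exclude reads in single samples.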
